A study of Mus musculus with 6 samples.

Results

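Hepatic growth hormone and insulin-like growth factor (IGF) signalling was followed through 10 genes: the receptor Ghr, the transcription factor Stat5b, the feedback inhibitors Socs2 and Cish, the circulating hormone Igf1, its carrier subunit Igfals, and the binding proteins Igfbp1, Igfbp2, Igfbp3 and Igfbp4. They were chosen by name and are 10 of the 43346 genes in the count table, each present once and each among the 19352 genes that passed the filter on low counts. RNA came from whole mouse livers, all from animals given the FFC diet, a dietary model of metabolic dysfunction-associated steatohepatitis, and an adeno-associated virus 8 (AAV8) construct encoding a short hairpin RNA (shRNA). The construct targets S100a11, which encodes a small protein that binds calcium, in 3 libraries numbered 2, 3 and 2600 (genotype labelled as knockdown). It carries a scrambled sequence in 3 libraries numbered 28, 30 and 31. No group without the diet or without a virus was analysed here, and the labels used give no strain, age, promoter or route for the construct. Nor do they say that each library is a separate animal, so p-values set the group difference against the spread between these libraries.

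Growth hormone from the pituitary binds GHR on hepatocytes, the attached kinase JAK2 is activated, and STAT5B is phosphorylated and enters the nucleus. There it drives Igf1 and Igfals as well as Socs2 and Cish, whose products dampen the same receptor. Most IGF1 in blood is carried in a complex of IGF1, IGFBP3 and the acid-labile subunit encoded by Igfals, while IGFBP1, IGFBP2 and IGFBP4 form smaller complexes. In mice the pulsatile secretion of growth hormone in males and the steadier secretion in females set a large group of liver genes to male or female levels through STAT5B. Insulin lowers transcription of Igfbp1 through FOXO1, and in fasting Igfbp1 is high.

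Promoter windows for 9 of the 10 genes, from 250 bases before to 50 bases after a transcription start, were taken from RefSeq (build GRCm38.p6), which gave 14 windows because several genes have more than 1 start. Windows were searched on both strands for the STAT5 element TTCNNNGAA, which reads the same on both strands, and for the insulin response core CAAAACA; the motifs do not overlap each other in any window shown. Of 32851 windows of this length over all genes, 8.30% held the first motif and 6.28% the second. Among the genes studied the first was present for Cish and Igfals and the second for Igfbp1. The 3 windows are shown because they hold the only matches near the Cish start, the Igfals match nearest to a start, and the Igfbp1 match. Capitals mark the matched letters and positions are counted from the RefSeq start.

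Cish (chr9:107296409-107296708, plus strand, matches beginning at positions 1 and 12): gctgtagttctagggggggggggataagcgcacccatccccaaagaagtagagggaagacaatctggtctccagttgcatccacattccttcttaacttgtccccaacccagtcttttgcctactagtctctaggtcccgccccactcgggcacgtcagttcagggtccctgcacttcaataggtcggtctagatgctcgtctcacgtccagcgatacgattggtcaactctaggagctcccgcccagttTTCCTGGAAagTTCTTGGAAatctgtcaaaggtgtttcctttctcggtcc
Igfals (chr17:24877981-24878280, plus strand, match beginning at position -58): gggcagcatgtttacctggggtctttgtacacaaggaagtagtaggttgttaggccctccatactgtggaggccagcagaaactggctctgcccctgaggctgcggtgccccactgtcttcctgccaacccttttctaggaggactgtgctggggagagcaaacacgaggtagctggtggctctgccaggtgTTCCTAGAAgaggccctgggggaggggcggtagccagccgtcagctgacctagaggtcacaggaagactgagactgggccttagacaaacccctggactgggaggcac
Igfbp1 (chr11:7197537-7197836, plus strand, match beginning at position -108): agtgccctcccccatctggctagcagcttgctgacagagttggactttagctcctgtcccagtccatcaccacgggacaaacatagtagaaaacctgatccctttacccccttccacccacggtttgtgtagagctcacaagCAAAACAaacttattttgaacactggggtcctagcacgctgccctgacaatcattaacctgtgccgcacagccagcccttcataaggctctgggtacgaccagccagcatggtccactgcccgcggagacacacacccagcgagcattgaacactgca

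A further Igfals window (chr17:24877594-24877893) held the STAT5 letters at position -236, and the third Igfals window, nearest to the gene start in the deposited table, held neither motif. Windows of Ghr, Igf1, Stat5b, Igfbp2, Igfbp3 and Igfbp4 held neither motif. A match is a run of letters and not a measured binding site. Binding was not measured in these samples.

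The targeted gene was checked first. S100a11 stood at 16, 3.55 and 3.41 CPM, a count relative to library size after adjustment by the trimmed mean of M values (TMM), in libraries 2, 3 and 2600 labelled S100a11 shRNA, against 15.9, 22.9 and 30.0 CPM in scrambled libraries 28, 30 and 31. The library labelled S100a11 shRNA 2 therefore lay level with the lowest scrambled library. Over all genes its counts were also nearer to each scrambled library than to libraries 3 and 2600, as given in the processing section. The S100a11 log2 change was -1.57 ± 0.56 (SE), edgeR adjusted p = 0.095, and -2.75 with an adjusted p of 0.00044 without library 2. Each direction below is that of the libraries labelled S100a11 shRNA. Libraries held 53517387 to 69874237 counts in that group and 57717111 to 78091845 in the scrambled group. All 6 carried male transcripts, with 4 Y-linked genes at no less than 42.2 CPM and Xist at no more than 0.70 CPM.

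Of the 19352 genes tested, 14.1% passed an edgeR quasi-likelihood adjusted p of 0.05, 5.82% as rises and 8.28% as falls in the S100a11 shRNA group. Counts of rises and falls given below, for cell type markers too, stand beside these shares. The groups did not overlap in 34.7% of genes, 16.5% with every library labelled S100a11 shRNA above every scrambled library and 18.1% with every one below. Of the 10 genes of the growth hormone and IGF axis, Ghr, Igfals and Igfbp4 rose and 0 fell, and the same 3 were the ones whose groups did not overlap. By sign alone 9 were higher and 1, Igfbp3, lower. Their median log2 change was 0.65, against 0.04 over all tested genes, and with library totals alone it was 0.30, against -0.32. With only 10 genes chosen by name, the count is a description of these genes.

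**Figure D1:**
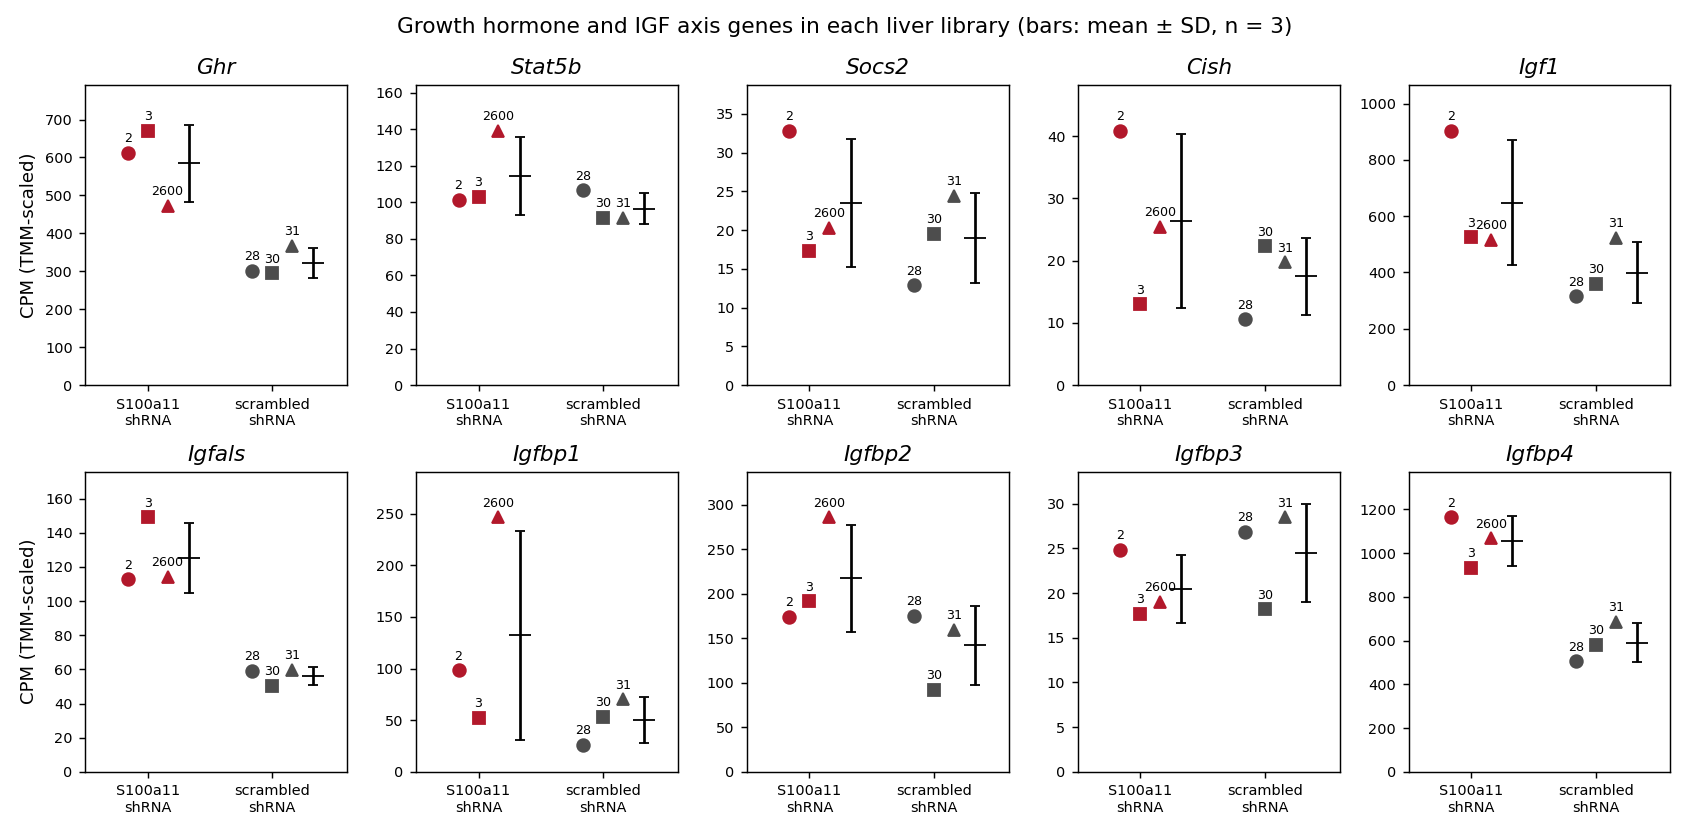
CPM of each of the 10 genes in each library, with S100a11 shRNA libraries (red) left of scrambled libraries (grey), library numbers beside the points, and mean ± SD bars (n = 3 each). Ghr, Igfals and Igfbp4 show separate groups, Igf1, Socs2 and Cish are highest in library 2, and Igfbp1 and Igfbp2 are highest in library 2600.

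Igfals showed the firmest change. It encodes the acid-labile subunit, a liver-secreted glycoprotein that prolongs the life of IGF1 in blood. Igfals stood at 113, 149 and 114 CPM in libraries 2, 3 and 2600 labelled S100a11 shRNA, against 58.9, 50.3 and 59.9 CPM in scrambled libraries 28, 30 and 31. All 3 libraries of the first group lay well above the highest scrambled library, and the gap between the groups was wider than the range within either. Igfals averaged 125 ± 20.6 CPM in the S100a11 shRNA group and 56.4 ± 5.27 CPM in the scrambled group (SD, n = 3 each), a rise of 2.22-fold (log2 change 1.15 ± 0.16 SE, edgeR adjusted p = 0.0049). The rise kept its side of the threshold in each of the 15 alternative fits, with edgeR adjusted p between 0.0012 and 0.031 when any 1 library was left out. The gene (ENSMUSG00000046070) lies on chromosome 17 from 24878770 to 24882008 in mm10.

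Ghr, the growth hormone receptor, rose 1.82-fold. Its levels were 612, 671 and 473 CPM in libraries 2, 3 and 2600 labelled S100a11 shRNA, against 302, 295 and 367 CPM in scrambled libraries 28, 30 and 31. The lowest library of the first group, 2600, was still above the highest scrambled library, 31. Ghr averaged 585 ± 102 CPM in the S100a11 shRNA group and 321 ± 40.1 CPM in the scrambled group (SD, n = 3 each; log2 change 0.87 ± 0.18 SE, edgeR adjusted p = 0.018). The call ended without library 3 (adjusted p = 0.065), without scrambled library 28 (0.068) or 30 (0.087), and with scaling by library totals alone (log2 change 0.52, adjusted p = 0.083). Ghr (ENSMUSG00000055737) spans chromosome 15 from 3317760 to 3583492, and the count sums over its transcripts, so the membrane receptor and the secreted binding protein made by alternative splicing are not separated.

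Igfbp4, which binds IGFs in a small complex and is cleaved by the protease PAPP-A, rose 1.79-fold. It stood at 1163, 934 and 1067 CPM in libraries 2, 3 and 2600 labelled S100a11 shRNA, against 505, 581 and 684 CPM in scrambled libraries 28, 30 and 31. The groups were again apart, with library 3 the lowest of the first group and scrambled library 31 the highest of the second. Igfbp4 averaged 1055 ± 115 CPM in the S100a11 shRNA group and 590.2 ± 90.1 CPM in the scrambled group (SD, n = 3 each; log2 change 0.84 ± 0.19 SE, edgeR adjusted p = 0.021). Without scrambled library 28 or 30 the adjusted p was 0.080 and 0.089, and with library totals alone the log2 change was 0.48 with an adjusted p of 0.093. The gene (ENSMUSG00000017493) lies on chromosome 11 from 99041244 to 99054392.

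The summed level of hepatocyte markers was also higher by mean, and its part in the result was not tested. Of 10 hepatocyte markers 1 rose and 0 fell, 0 were without counts, the median log2 change was 0.31 (-0.05 with library totals alone, or 0.27 relative to the median of all genes under either scaling), and their summed level ran from 56120 to 75302 CPM in the S100a11 shRNA group and from 46137 to 57501 CPM in the scrambled group. Relative to that sum, a measure chosen after the values were seen, the mean log2 ratio of Igfals differed by 0.89, of Ghr by 0.60 and of Igfbp4 by 0.59, and the groups of each still did not overlap. On that measure Igfbp3 was lower by sign in every library labelled S100a11 shRNA, with a difference of -0.50. In whole liver, fewer cells of a type and less RNA per cell cannot be told apart.

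Igf1 itself did not pass the threshold. The gene encodes the main circulating growth mediator of the hormone. Igf1 stood at 903, 524.1 and 515 CPM in libraries 2, 3 and 2600 labelled S100a11 shRNA, against 314, 361 and 523.6 CPM in scrambled libraries 28, 30 and 31. Library 2 was the one high value, and libraries 3 and 2600 were level with scrambled library 31. Igf1 averaged 647 ± 222 CPM in the S100a11 shRNA group and 399.5 ± 109.9 CPM in the scrambled group (SD, n = 3 each; log2 change 0.70 ± 0.27 SE, edgeR adjusted p = 0.13). Without library 2, the library in which S100a11 was at a scrambled level, the Igf1 log2 change was 0.35 (adjusted p = 0.25). Macrophages also make Igf1, and of 10 macrophage markers 8 fell and 0 rose, with 0 of them without counts in all libraries and sums of 168 to 322 CPM in the libraries labelled S100a11 shRNA against 511 to 724 CPM in scrambled libraries. The 8 include Trem2, Gpnmb, Cd9, Itgax, Ms4a7 and Mmp12. Adgre1 and Csf1r were not called (log2 change -0.40 and -0.55, edgeR adjusted p = 0.41 and 0.14). Of 10 Kupffer cell markers 2 rose and 0 fell, and by sign 7 were higher and 3 lower. The genes of these lists were named here after their values were seen. The part of macrophages in the Igf1 level was not tested.

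The feedback genes Socs2 and Cish, which are induced by STAT5 and restrain it, were not called. Socs2 encodes an adaptor that directs GHR to degradation. It stood at 32.8, 17.3 and 20.2 CPM in libraries 2, 3 and 2600 labelled S100a11 shRNA, against 12.9, 19.5 and 24.4 CPM in scrambled libraries 28, 30 and 31. Only library 2 lay outside the scrambled range (log2 change 0.31 ± 0.29 SE, edgeR adjusted p = 0.52). Without library 2 the Socs2 change was -0.04, and with library totals alone it was also -0.04, or 0.28 relative to the median of all genes.

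Cish, the cytokine-inducible SH2 protein whose promoter window carries the paired STAT5 letters shown above, stood at 40.9, 12.96 and 25.4 CPM in libraries 2, 3 and 2600 labelled S100a11 shRNA. In scrambled libraries 28, 30 and 31 it stood at 10.5, 22.3 and 19.7 CPM. The groups interleaved, with library 3 below 2 of the 3 scrambled libraries. The log2 change was 0.59 ± 0.40 (SE, edgeR adjusted p = 0.36) and 0.10 without library 2. Cish varied 3.15-fold within the first group and 2.11-fold within the scrambled group, against 1.32-fold and 1.19-fold for Igfals.

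Stat5b, the transducer between receptor and nucleus, stood at 101, 103 and 139 CPM in libraries 2, 3 and 2600 labelled S100a11 shRNA, against 107, 91.7 and 91.5 CPM in scrambled libraries 28, 30 and 31. Library 2600 was high and the other 5 libraries lay close together. Library 2600, which was also the highest for Igfbp1 and Igfbp2, had 10.8% of its counts in the gene Gm26917 (3.16 to 6.44% in the other libraries), the lowest TMM factor (0.822, against 0.896 to 1.19) and 22893 genes with a count (23917 to 25649 in the others). The part of these in its levels was not tested. The log2 change was 0.25 ± 0.16 (SE, edgeR adjusted p = 0.35), and with library totals alone it turned to -0.12, or 0.19 relative to the median of all genes. Without library 2600 it was 0.07. STAT5B acts through phosphorylation, which RNA counts do not show.

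Binding proteins other than Igfbp4 did not pass the threshold. Igfbp1, the insulin-suppressed and fasting-induced binding protein, had the largest log2 change of the 10 genes and also the widest spread. It stood at 98.2, 51.9 and 246 CPM in libraries 2, 3 and 2600 labelled S100a11 shRNA, against 26.04, 53.2 and 70.1 CPM in scrambled libraries 28, 30 and 31. Libraries 2 and 2600 were above every scrambled library, whereas library 3 was below 2 of them. The log2 change was 1.41 ± 0.53 (SE, edgeR adjusted p = 0.12), and 0.59 without library 2600. Highest over lowest was 4.74-fold in the first group and 2.69-fold in the scrambled group.

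Igfbp2, which rises in fasting and falls in obesity, stood at 174, 192 and 286 CPM in libraries 2, 3 and 2600 labelled S100a11 shRNA, against 176, 91.6 and 159.7 CPM in scrambled libraries 28, 30 and 31. Library 2600 was the high one and scrambled library 30 the low one, and library 2 was level with scrambled library 28 (log2 change 0.61 ± 0.27 SE, edgeR adjusted p = 0.17). Igfbp3, the carrier in the complex with the acid-labile subunit, was the only gene with a negative sign. It stood at 24.8, 17.6 and 19.03 CPM in libraries 2, 3 and 2600 labelled S100a11 shRNA, against 26.8, 18.2 and 28.5 CPM in scrambled libraries 28, 30 and 31. The groups overlapped through scrambled library 30 (log2 change -0.26 ± 0.21 SE, edgeR adjusted p = 0.45). In rat liver Igfbp3 is made by non-parenchymal cells. Of 10 sinusoidal endothelial markers here 1 rose and 1 fell, with sums of 942 to 1266 CPM in the S100a11 shRNA group against 914 to 1008 CPM in the scrambled group. Of 10 Kupffer cell markers 2 rose and 0 fell, with 532 to 1002 CPM in the S100a11 shRNA group against 495 to 628 CPM in the scrambled group. In that sum C6 held 175, 520 and 436 CPM in libraries 2, 3 and 2600, against 161, 199 and 173 CPM in scrambled libraries 28, 30 and 31. Timd4 and Fcna rose, while Clec4f, Vsig4, Cd5l and Folr2 were not called (log2 change 0.00, -0.54, -0.42 and -0.17). By sign 7 of the 10 were higher and 3 lower. These genes were named after their values were seen. Of 10 stellate cell and fibroblast markers 0 rose and 6 fell, with 613 to 894 CPM in the S100a11 shRNA group against 1099.7 to 1484 CPM in the scrambled group. No marker of these lists was at 0 in all libraries, and their part in the Igfbp3 level was not tested.

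Per length of gene, the order of levels was much the same in both groups. Deposited lengths were 6419 bases for Cish, 9531 for Socs2 and 1525 for Igfbp1. They may differ from the transcripts present in these livers, and the order between genes depends on them. In the libraries labelled S100a11 shRNA, Igfbp4 was the most abundant at 239 ± 26.04 CPM per kilobase (SD, n = 3), followed by Igfbp2 at 118 ± 32.5, Igfbp1 at 86.7 ± 66.6, Igf1 at 65.4 ± 22.4, Ghr at 64.6 ± 11.2 and Igfals at 59.3 ± 9.74. Stat5b followed at 20.7 ± 3.87, Igfbp3 at 6.55 ± 1.22, Cish at 4.12 ± 2.18 and Socs2 at 2.46 ± 0.87 CPM per kilobase. In scrambled libraries the order was Igfbp4 at 134 ± 20.4 CPM per kilobase, Igfbp2 at 77.0 ± 24.1, Igf1 at 40.3 ± 11.1, Ghr at 35.5 ± 4.43, Igfbp1 at 32.7 ± 14.6, Igfals at 26.7 ± 2.50, Stat5b at 17.4 ± 1.56, Igfbp3 at 7.83 ± 1.77, Cish at 2.73 ± 0.96 and Socs2 at 1.99 ± 0.61. The ranges of neighbours from Igfbp2 down to Igfals overlapped in both groups, as did those of Cish and Socs2. Within each of the 6 libraries, however, Igfbp4 lay above Igfbp2, Igfbp2 above Igf1, Igfals above Stat5b, Stat5b above Igfbp3 and Cish above Socs2. The ranges of Igfbp3 and Cish were apart in scrambled libraries and overlapped in the libraries labelled S100a11 shRNA.

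**Figure D2:**
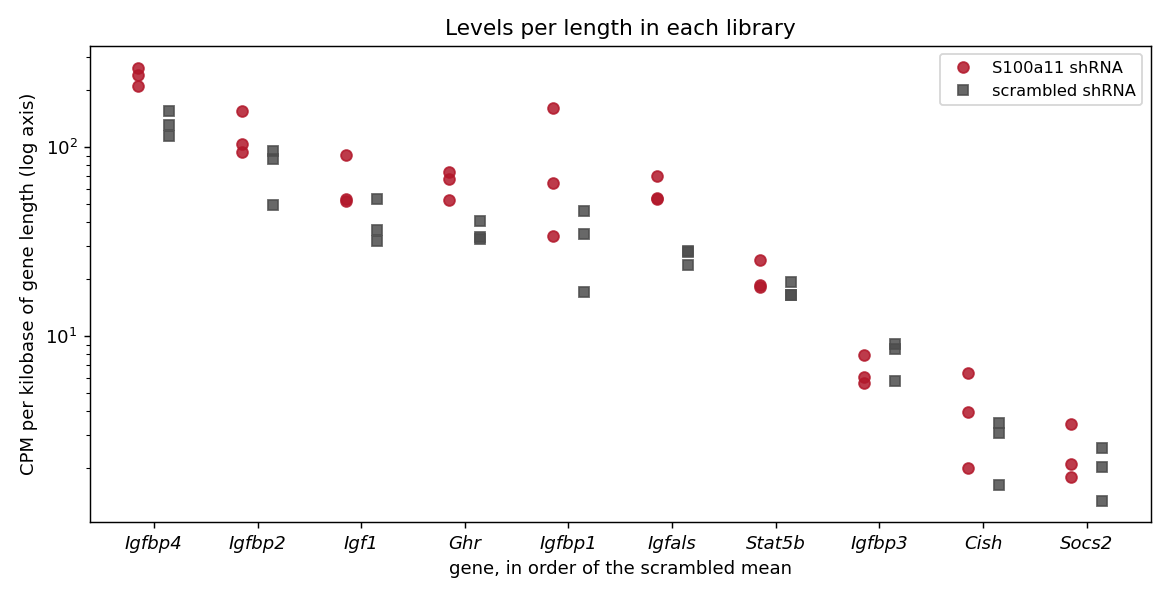
CPM per kilobase of gene length (log axis) for the 10 genes in order of the scrambled mean, with S100a11 shRNA libraries as red circles left of scrambled libraries as grey squares. Igfbp4 leads in every library and Cish and Socs2 are lowest, while the genes from Igfbp2 to Igfals overlap their neighbours.

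Ratios of each gene to Igf1 within a library do not depend on how libraries are scaled. For 9 ratios the smallest two-sided p that 3 against 3 libraries allow is 0.1, so none could pass 0.05. The log2 ratio of Igfbp3 to Igf1 was -5.19, -4.89 and -4.76 in libraries 2, 3 and 2600 labelled S100a11 shRNA, against -3.55, -4.31 and -4.20 in scrambled libraries 28, 30 and 31. Every library of the first group was below every scrambled one, a mean difference of -0.92 (exact permutation p = 0.1, adjusted over 9 ratios 0.45). The log2 ratio of Socs2 to Igf1 was likewise lower throughout, at -4.78, -4.92 and -4.67 in the S100a11 shRNA group against -4.61, -4.21 and -4.42 in the scrambled group (difference -0.38, exact permutation p = 0.1, adjusted 0.45). The other 7 ratios overlapped, with differences of -0.45 to 0.55 and exact permutation p of 0.3 to 0.9. The Igfals to Igf1 ratio was among them, at -2.33 ± 0.61 in the S100a11 shRNA group and -2.80 ± 0.36 in the scrambled group (SD, n = 3 each), a difference of 0.47 (exact permutation p = 0.3). In library 2 Igf1 was at its highest and Igfals at its lowest of that group.

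**Figure D3:**
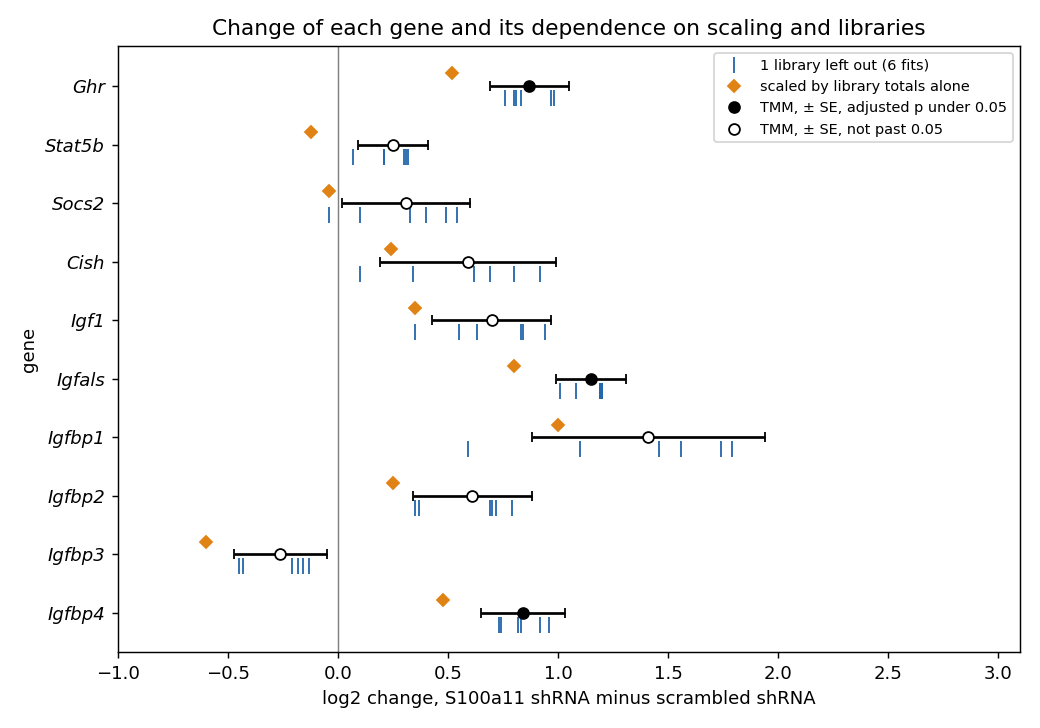
Log2 change (S100a11 shRNA minus scrambled shRNA) of the 10 genes with TMM scaling (circles ± SE, filled where the edgeR adjusted p is under 0.05), with each library left out in turn (blue ticks) and with library totals alone (orange diamonds). Igfals stays between 0.80 and 1.20, Igfbp1 ranges from 0.59 to 1.79, and Socs2 reaches -0.04.

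Profiles were compared among protein-coding genes averaging 10 CPM or more, with predicted models, clones and Mup genes left out. Those whose centred log2 CPM over the 6 libraries differed least from Igf1 were Trp53inp1 (root mean square difference 0.096), Tspan4 (0.096) and Irgm2 (0.101). Trp53inp1 encodes a p53-induced nuclear protein, Tspan4 a tetraspanin and Irgm2 an interferon-induced GTPase. Nearest to Socs2 were Slc35g1 (0.102), Ei24 (0.127) and Enpp4 (0.137). These are the closest of 8904 candidates on 6 libraries, and no member of the axis was among them.

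Other genes of growth hormone receptor signalling were called about as often as all tested genes. Of 19 genes, which include Jak2, Stat5a, Socs1 and Socs3, 1 rose and 1 fell, beside 5.82% and 8.28% of all tested genes. The median log2 change of the list was 0.19 (-0.16 with library totals alone, or 0.16 relative to the median of all genes). Prlr, the prolactin receptor, a close relative of GHR, stood at 177, 121 and 89.6 CPM in libraries 2, 3 and 2600 labelled S100a11 shRNA, against 49.1, 49.9 and 84.5 CPM in scrambled libraries 28, 30 and 31 (2.11-fold, edgeR adjusted p = 0.039). Library 2600 was only just above scrambled library 31. Grb10, an adaptor that inhibits insulin and IGF1 receptors, stood at 11.6, 9.72 and 10.1 CPM in the first group, against 15.6, 19.6 and 16.9 CPM in the scrambled group (1.66-fold lower, edgeR adjusted p = 0.018). The call of Prlr ended without library 3, 28 or 30 (adjusted p of 0.091 to 0.15) and with library totals alone (0.10), and that of Grb10 without library 3, 30 or 31 (0.059 to 0.096). Without library 2 the list held 4 rises and 1 fall. It held 0 rises without library 3, 28 or 30, and 0 falls without library 3, 30 or 31. With library totals alone 0 rose and 3 fell.

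The kinase and the alternative STAT gave no call. Jak2 averaged 32.8 CPM in the libraries labelled S100a11 shRNA and 35.3 CPM in scrambled libraries (log2 change -0.11, edgeR adjusted p = 0.60), and Stat5a averaged 58.3 CPM in the S100a11 shRNA group and 42.5 CPM in the scrambled group (0.46, adjusted p = 0.12). Socs3, which is induced by inflammatory cytokines and blocks GHR signalling, averaged 12.9 CPM in the S100a11 shRNA group and 14.4 CPM in the scrambled group (-0.16, adjusted p = 0.78). These 3 were chosen after their values were seen, as the nearest partners of the receptor.

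In the rest of the IGF system 2 of 17 tested genes rose and 6 fell, of 20 listed, beside 5.82% and 8.28% of all tested genes. The median log2 change of the list was -0.34 (-0.71 with library totals alone, or -0.40 relative to the median of all genes). The 3 untested genes, Igfbpl1, Pappa2 and Igf2bp1, did not pass the filter on low counts. Htra1, a secreted serine protease able to cleave IGF binding proteins, stood at 3.39, 2.85 and 1.91 CPM in libraries 2, 3 and 2600 labelled S100a11 shRNA, against 6.32, 8.44 and 9.27 CPM in scrambled libraries 28, 30 and 31 (2.93-fold lower, edgeR adjusted p = 0.0078). Igfbp7, an IGF binding protein of low affinity found in vessels and stroma, fell 1.66-fold to 45.9 ± 5.81 CPM, against 76.3 ± 15.6 CPM in scrambled libraries (SD, n = 3 each, edgeR adjusted p = 0.028). Pcsk6, a proprotein convertase of the furin family, rose 1.58-fold, at 219 ± 28.5 CPM in the S100a11 shRNA group against 138.8 ± 7.62 CPM in the scrambled group (SD, n = 3 each, adjusted p = 0.020). Igf2bp3, a fetal RNA-binding protein, was called lower (adjusted p = 0.0099) on 1, 0 and 1 counts in the S100a11 shRNA group against 11, 13 and 16 in the scrambled group. Igf1r, the receptor for IGF1, averaged 15.3 CPM in the S100a11 shRNA group and 19.3 CPM in the scrambled group. Insr, the insulin receptor, averaged 394 CPM in the S100a11 shRNA group and 297 CPM in the scrambled group, and neither was called (adjusted p = 0.26 and 0.089). These 2 were named after their values were seen.

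Calls in this list depended on single libraries, as did calls in the other lists and over all tested genes. With any 1 library left out, 724 to 4176 of all genes were called, 221 to 1806 higher and 503 to 2370 lower. In this list the call of Pcsk6 ended without scrambled library 28, 30 or 31 (adjusted p of 0.062 to 0.098) and with library totals alone (0.19), and that of Igfbp7 without library 3, 2600, 30 or 31 (0.068 to 0.10), while Htra1 kept its call in each alternative fit. The falls numbered 2 without library 3, 30 or 31 and 3 without library 2600. The rises numbered 1 without library 2 or 3 and 0 without library 28, 30 or 31, and with library totals alone 0 rose and 8 fell. Most of the listed stromal and macrophage markers fell beside them, as given above, and their part in these falls was not tested.

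Most genes of a list set to male levels by growth hormone rose, a list chosen with earlier results of these data known. Of 19 tested genes of 20 listed as male-biased, 15 rose and 0 fell, beside 5.82% and 8.28% of all tested genes. The median log2 change of the list was 1.58. Relative to the median of all genes the list stood at 1.54 under TMM and at 1.53 under unscaled library totals, where 12 rose and 2 fell. By library the list median, relative to the scrambled mean of each gene, was 0.97, 2.04 and 1.64 on the log2 scale in libraries 2, 3 and 2600 labelled S100a11 shRNA. The scrambled libraries 28, 30 and 31 gave 0.11, -0.08 and -0.01. Library 2, with S100a11 at a scrambled level, was the lowest of its group. For the 10 axis genes the same measure was 0.96, 0.30 and 0.59 in libraries 2, 3 and 2600, so library 2 was the highest there. Scrambled libraries 28, 30 and 31 gave -0.15, -0.09 and 0.23 for the axis genes. Without scrambled library 30, 6 of the list rose, and without any other single library 11 to 15 did.

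Slco1a1, an organic anion carrier of the hepatocyte membrane, stood at 38.0, 225 and 176 CPM in libraries 2, 3 and 2600 labelled S100a11 shRNA, against 4.52, 8.39 and 10.7 CPM in scrambled libraries 28, 30 and 31 (18.6-fold, edgeR adjusted p = 0.0059). Elovl3, a fatty acid elongase, stood at 46.9, 131 and 259 CPM in the S100a11 shRNA group, against 15.8, 11.7 and 8.05 CPM in the scrambled group (12.3-fold, adjusted p = 0.0067). Cyp7b1, an oxysterol hydroxylase, stood at 68.5, 273 and 126 CPM in the S100a11 shRNA group, against 27.7, 24.0 and 25.7 CPM in the scrambled group (6.05-fold, adjusted p = 0.0079). All 3 were lowest in library 2 within their group and still above every scrambled library. Without library 2600 the Elovl3 log2 change of 3.62 was 2.87, and without library 3 that of Cyp7b1, 2.60, was 1.91. The major urinary proteins, near-identical copies whose reads cannot be divided with certainty, summed to 3222, 6253 and 7817 CPM over 21 genes in libraries 2, 3 and 2600 labelled S100a11 shRNA, against 2223, 1708 and 2120 CPM in the scrambled ones, and 1 of them, Mup3, is among the 15 rises. The copies did not all share that direction. Mup20, a further copy on the male-biased list and named after its values were seen, stood at 1132, 982 and 1095 CPM in libraries 2, 3 and 2600 labelled S100a11 shRNA, against 1413, 1117 and 1298 CPM in scrambled libraries 28, 30 and 31 (log2 change -0.25, edgeR adjusted p = 0.39).

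Female-biased genes did not move one way. Of 23 tested genes of 27 listed, 3 rose and 4 fell, beside 5.82% and 8.28% of all tested genes. The median log2 change of the list was 0.16 (-0.23 with library totals alone, or 0.09 relative to the median of all genes). Atp6v0d2, a subunit of the vacuolar proton pump, fell 3.36-fold to 4.88 ± 1.47 CPM, against 16.4 ± 3.09 CPM in scrambled libraries (SD, n = 3 each, edgeR adjusted p = 0.0051), and Prom1, a membrane glycoprotein of progenitor cells and ducts, 2.56-fold lower (adjusted p = 0.012). Acot3, a peroxisomal thioesterase, rose 9.93-fold to 57.8 ± 25.5 CPM, against 5.78 ± 5.45 CPM in scrambled libraries (adjusted p = 0.012), and Slc22a26, an organic anion transporter, 5.57-fold higher (adjusted p = 0.019). Macrophages also express Atp6v0d2 and ducts Prom1, and of 10 cholangiocyte markers 8 fell and 0 rose, with 0 of them without counts in all libraries and sums of 157 to 179.9 CPM in the libraries labelled S100a11 shRNA against 516 to 635 CPM in scrambled libraries. Their part in these falls was not tested. Without scrambled library 31 the log2 changes of Acot3 and Slc22a26, 3.31 and 2.48, were 4.45 and 3.39, and the call of Slc22a26 ended without scrambled library 28 or 30 (0.065 and 0.075), as did that of Prom1 without library 3 (0.053). The rises numbered 6 without library 2600 and 1 without scrambled library 28 or 30. The falls numbered 6 without library 2, 2 without scrambled library 30 or 31 and 1 without library 3.

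Transcription factors known to act with STAT5B or to set sex-dependent expression were higher in part. Of 15 regulators 6 rose and 0 fell, beside 5.82% and 8.28% of all tested genes. The median log2 change of the list was 0.66 (0.32 with library totals alone, or 0.64 relative to the median of all genes). Nr1i3, the nuclear receptor CAR, stood at 567, 1213 and 1145 CPM in libraries 2, 3 and 2600 labelled S100a11 shRNA, against 326, 191 and 273 CPM in scrambled libraries 28, 30 and 31 (3.70-fold, edgeR adjusted p = 0.0083). It kept its call in each alternative fit. Cebpb, a factor of the acute phase and of gluconeogenesis, was 1.81-fold higher (adjusted p = 0.022) and the estrogen receptor Esr1 2.23-fold (adjusted p = 0.026). Bcl6, a repressor that competes with STAT5 for its sites, averaged 50.4 CPM in the S100a11 shRNA group and 58.4 CPM in the scrambled group (adjusted p = 0.77), and Cux2, a female-specific repressor, 3.04 CPM in the S100a11 shRNA group and 2.71 CPM in the scrambled group (adjusted p = 0.65), both named after their values were seen. With library totals alone 1 of the 15 rose. The rises numbered 1 without library 3 or 30, 2 without library 28 and 3 without library 31. The calls of Cebpb and Esr1 each ended with library totals alone (0.12 and 0.073) and without library 3 or 30 (0.060 to 0.11), and that of Esr1 also without library 28 (0.089).

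Insulin and FOXO1 responsive genes, the group to which Igfbp1 belongs by its regulation, gave 6 rises and 1 fall of 16. Of all tested genes 5.82% rose and 8.28% fell. The median log2 change of the list was 0.17 (-0.19 with library totals alone, or 0.13 relative to the median of all genes). Pck1, the cytosolic enzyme that commits carbon to glucose synthesis, stood at 3053, 2665 and 3697 CPM in libraries 2, 3 and 2600 labelled S100a11 shRNA, against 654, 1083 and 1243 CPM in scrambled libraries 28, 30 and 31 (3.16-fold, edgeR adjusted p = 0.0093). G6pc, glucose-6-phosphatase, stood at 306, 463 and 674 CPM in the S100a11 shRNA group, against 120.1, 179.6 and 182 CPM in the scrambled group (3.00-fold, adjusted p = 0.011). Within the S100a11 shRNA group both were highest in library 2600, as Igfbp1 was. Pck1 was lowest of that group in library 3, as Igfbp1 was, but G6pc was lowest in library 2. Klf15, a fasting-induced factor, was 1.83-fold higher and Foxo1 1.81-fold higher (both adjusted p = 0.011). Neither followed the Igfbp1 order within that group, as Klf15 was highest in library 3 (203 CPM) and Foxo1 lowest in library 2600 (84.7 CPM). Feeding state at collection is not given in the labels. The calls of Klf15 and Foxo1 ended without scrambled library 30 (0.054 and 0.062) and with library totals alone (0.056 and 0.072). Without scrambled library 30, 2 of the 16 rose, and with library totals alone 2 rose and 3 fell. The 1 fall became 2 without library 2 and 0 without library 3, 28, 30 or 31.

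**Figure D4:**
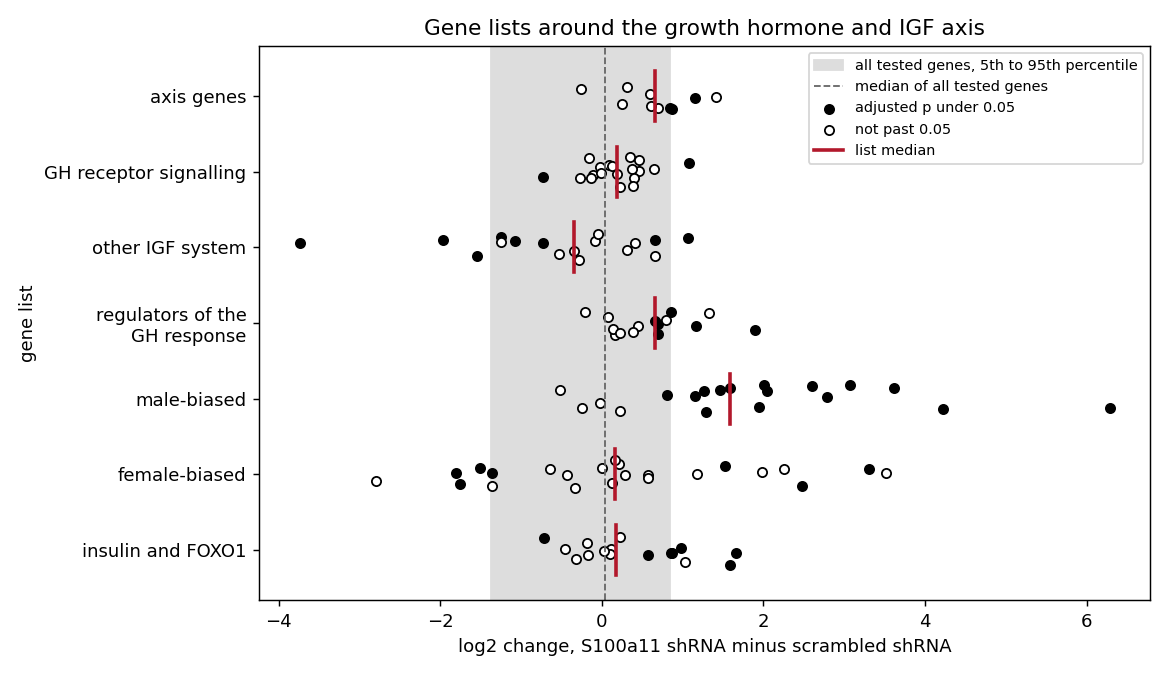
Log2 change (S100a11 shRNA minus scrambled shRNA) of each tested gene in the 10 axis genes and 6 surrounding lists, filled where the edgeR adjusted p is under 0.05, with list medians in red. Grey spans the 5th to 95th percentile of all tested genes (-1.38 to 0.84) and the male-biased list lies mostly above it.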

How the data were processed

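Per the labels, total RNA of liver was depleted of ribosomal RNA and made into stranded Illumina libraries. The authors deposited raw counts per Ensembl gene for 6 libraries, with a gene length in bases, and the submitters' processing notes name the build mm10; the sources used here name no aligner, counting tool or strand setting. Columns were matched to samples by library name in the labels. All 6 columns were used, and no pair agreed within sampling noise, the smallest chi-square per gene between any pair being 48.4. This value was 193, 223 and 158 for library 2 against scrambled libraries 28, 30 and 31. For library 2 against libraries 3 and 2600 of its own label it was 235 and 349, and libraries 3 and 2600 gave 147. The cause was not tested. Of the 10 genes, Cish and Igf1 overlap other annotated genes, some of them antisense, that held at most 0.68% of their counts.

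Counts were analysed with edgeR 4.0.16 in R 4.3.3: filterByExpr (minimum count 10, minimum total 15), TMM, estimateDisp, glmQLFit without the legacy option and glmQLFTest, fitted on 19352 genes with Benjamini-Hochberg adjustment and a threshold of 0.05. SE is the log2 change over the square root of F. CPM use TMM-scaled totals, log2 CPM a prior count of 2, and CPM per kilobase the deposited length. By Ensembl identifier 42462 genes matched GENCODE M21 symbols. Alternatives were RLE, upper-quartile and unscaled totals, TMM without the 20 most abundant genes, 2 other filters, DESeq2 1.42.0, limma 3.58.1 voom, each library left out, and, added after seeing the data, the legacy quasi-likelihood. The first 4 genes by p of each list are named, Mup genes only as a sum, and 1 regulator is not reported here. The genes and lists were chosen with earlier results of these data known. The procedure was tested on simulated data with the trended dispersion of these libraries. It called 15.6% of genes set to change 1.5-fold, 56.1% at 2-fold and 95.3% at 4-fold. A gene left uncalled here may therefore still differ. Intervals for single counts are not given; at 53517387 or more counts per library, counting error is small for the 10 genes, each with at least 709 counts.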

Additional observations from a re-analysis of the deposited data

How the results depend on the processing

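Igfals kept its direction and call in all 15 alternative fits, and Igf1, Cish, Igfbp1, Igfbp2 and Igfbp3 stayed uncalled with their sign kept. Scaling by library totals alone moved the median log2 change of all genes to -0.32, against 0.04 with TMM, and gave 4367 genes called, 397 higher and 3970 lower, and 1 axis gene higher. With it 0 signalling genes rose and 3 fell, 0 other IGF genes rose, 1 regulator rose, 2 male-biased genes fell, and 2 insulin and FOXO1 genes rose and 3 fell. Stat5b turned to -0.12 and Socs2 to -0.04, and S100a11 was -1.90. S100a11 was -1.89 and called with limma voom. Other IGF genes higher numbered 1 with upper-quartile factors, with the 1 CPM filter and with limma voom. Female-biased genes higher numbered 6 without a filter and with DESeq2, and 2 signalling genes rose with DESeq2. Igf2bp3 could not be tested under the 1 CPM filter.

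Leaving out each library in turn gave 724 to 4176 genes called, 221 to 1806 higher and 503 to 2370 lower, and 1 to 3 axis genes higher (1 without scrambled library 28 or 30, 2 without library 3). Signalling genes numbered 0 to 4 higher and 0 to 1 lower, other IGF genes 0 to 2 and 2 to 7, regulators 1 to 6 higher, male-biased genes 6 to 15 higher and 0 to 1 lower, female-biased genes 1 to 6 and 1 to 6, and insulin and FOXO1 genes 2 to 6 and 0 to 2. S100a11 ranged from -2.75 to -1.22 and Socs2 from -0.04 to 0.54. The cause of these differences was not tested. No paired analysis was possible because the groups share no replicate numbers.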
